A study of Mus musculus with 2 samples.

Results

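Integrin genes were described in cultured mouse lung fibroblasts, as 10 genes chosen by symbol from the 27998 genes listed in both libraries. The alpha subunit genes were Itga1, Itga2, Itga4, Itga5, Itga8, Itga11 and Itgav, and the beta subunit genes were Itgb1, Itgb3 and Itgb5. All 10 symbols were found, each for 1 identifier. Cells came from dissociated lungs of wild-type C57BL/6 mice, were grown on plastic and were treated from passage 3 for 14 days. The labels give 2 libraries, 1 control library kept with vehicle and 1 stimulated library, with control cells taken from the same lung. The protocol names rosiglitazone, an agonist of the nuclear receptor PPARG, at 10 µM, rhBMP4, a bone morphogenetic protein, at 4 µM, and SB4315442 at 1 µM, alone or combined. Medium with serum is listed, or the supplement ITS+3 at 1% by volume for a lipofibroblast-like state, and the labels do not say which agents the stimulated cells received. The sources used here give neither the age of the mice nor the number of lungs.

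Integrins are cell surface receptors made of 1 alpha and 1 beta chain, which join the matrix outside the cell to actin inside it. The chains decide the ligand. In mammals alpha 1, alpha 2 and alpha 11 pair with beta 1 and bind collagen, alpha 5 and alpha 8 pair with beta 1 and bind proteins with an Arg-Gly-Asp (RGD) motif, and alpha 4 with beta 1 binds VCAM1 and a stretch of fibronectin. The alpha v chain pairs with several beta chains, among them beta 1, beta 3 and beta 5, and such receptors can release active TGF-beta, a driver of the contractile myofibroblast state, from its latent complex.

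Libraries held 88573140 control and 117193148 stimulated unique molecular identifiers (UMIs, 1 per captured transcript) in 4703 and 7468 kept cells, at a median of 19634 and 15379.5 UMIs per cell. Both libraries were mostly fibroblast-like by markers, with a share of 79.1% in the control (77.9 to 80.2%) and 82.2% in the stimulated library (81.3 to 83.1%). A macrophage-like cluster held 149 control cells and 1 stimulated cell. The median share of mitochondrial UMIs was 1.36% and 1.07%. The libraries had 53 deposited barcodes in common. Levels are a gene's UMIs per 1000000 UMIs of the library (CPM). The assay counts transcript 3′ ends, 1 UMI for each captured molecule, so a level does not scale with transcript length. With 1 library per group no test across samples was possible, and all intervals are exact 95% intervals (Poisson for levels and folds, binomial for shares) that cover counting error only. None of 518 windows from the 3′ ends of the 10 genes matched another listed gene.

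Promoter sequences of Itga5 and Itgb5 are shown because these genes stood at similar levels in the control library and far apart in the stimulated library. Both come from RefSeq (GRCm38.p6), cover the 250 bases before the start of the gene in its entry, and run 5′ to 3′ on the gene's strand. A stretch just after the start was found in 2 GENCODE M21 transcripts of Itgb5 and in 0 of Itga5. The start used for Itga5 is therefore less sure. Capitals mark the GC box GGGCGG on either strand, the binding motif of SP family factors. The Itga5 window lies at chr15:103366792-103367041 on the minus strand and the Itgb5 window at chr16:33829415-33829664 on the plus strand.
Itga5: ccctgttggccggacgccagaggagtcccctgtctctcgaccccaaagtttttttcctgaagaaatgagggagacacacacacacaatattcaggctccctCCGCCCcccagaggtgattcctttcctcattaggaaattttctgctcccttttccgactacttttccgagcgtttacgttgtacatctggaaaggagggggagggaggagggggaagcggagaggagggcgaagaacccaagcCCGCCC
Itgb5: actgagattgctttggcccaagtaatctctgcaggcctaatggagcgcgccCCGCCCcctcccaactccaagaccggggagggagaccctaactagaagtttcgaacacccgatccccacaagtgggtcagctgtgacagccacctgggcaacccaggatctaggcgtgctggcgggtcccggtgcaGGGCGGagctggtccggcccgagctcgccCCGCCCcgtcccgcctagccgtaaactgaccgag
The Itga5 window held 2 GC boxes and the Itgb5 window 3, with no overlap. Of 9 integrin genes with an entry in the promoter table, 4 had a GC box, against 32.7% of 32851 windows of the same length. The motifs TGANTCA (AP-1), GTCTAGAC (SMAD), the direct repeat of PPAR and the CArG box of SRF were searched on both strands, and no match lay in these 9 windows. Over all windows these motifs were in 6.75%, 0.167%, 0.0335% and 1.47%. GGAATG, the TEAD motif, was in 12.6% of all windows and in that of Itgb1 alone among the 9. A match is a description of the letters, not evidence of binding.

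Most of the integrin genes were lower in the stimulated library. Of the 10 genes, 8 were lower by a factor of 1.5 or more and 0 were higher by it, with a median log2 fold of -1.25. Among the 8787 genes whose mean reached 5 CPM, 12.0% were lower and 7.75% higher by that factor, and the median log2 fold was -0.06. Of the 10 genes, 6 reached that mean (Itga5, Itga8, Itga11, Itgav, Itgb1 and Itgb5), and 4 of these 6 were lower by the factor. Itga8 and Itga11 are among these 4, and their folds are limited by the levels seen in macrophage-like cells, given below. Itga5 and Itgav were within the 1.5-fold range. Nearest to its edge lay Itgb3 (1.64-fold lower), just past it, and Itgav (1.44-fold lower), just short of it.

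**Figure D1:**
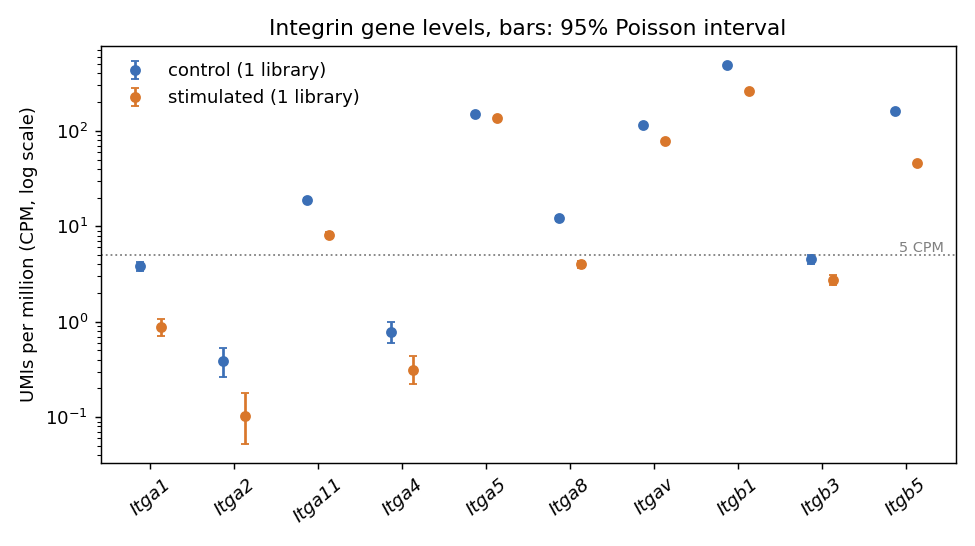
Level of each integrin gene in the control library (blue) and the stimulated library (orange), in CPM on a log axis. Bars are exact Poisson 95% intervals and the dotted line is at 5 CPM. The stimulated point lies below the control point for all 10 genes, by least for Itga5 (137 against 151 CPM) and by most for Itga1 (0.879 against 3.84 CPM).

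The 3 collagen receptor chains among the 10 genes were low and were lower still in the stimulated library. Itga11, which encodes the alpha chain of a receptor for fibrillar collagen, was the most abundant of them. It was at 18.8 CPM in the control library (17.9 to 19.7) and 8.16 CPM in the stimulated library (7.65 to 8.69). That is 2.30-fold lower (2.12 to 2.49). Macrophage-like control cells, which should lack Itga11, were at 10.4 CPM (6.14 to 16.4). The stimulated level lies within that interval, so the size of the Itga11 fold is not settled. Itga1, the alpha chain of a receptor that also binds basement membrane collagen IV, was at 3.84 CPM and 0.879 CPM, 4.37-fold lower (3.49 to 5.50). Itga2 rested on 34 control and 12 stimulated UMIs, at 0.384 and 0.102 CPM. Its fold, 3.75 lower, has a wide interval (1.89 to 7.95), and its log2 fold of -1.91 was -3.40 in fibroblast-like clusters alone and -2.93 with equal weight per cell. The fibroblast-like class kept a control cluster with 21 of the 34 UMIs. It left out a stimulated cluster of like leading genes with 8 of the 12, so the -3.40 rests on 4 stimulated UMIs and unlike sets of cells. Itga4, the alpha chain of the VCAM1 receptor, had 69 and 37 UMIs and was 2.47-fold lower (1.63 to 3.78).

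Of the RGD-binding alpha chains, Itga5 and Itgav differed less than the collagen receptor chains, while the fold of Itga8 lay within the range of theirs. Itga5, the alpha chain of the main fibronectin receptor, was at 151 CPM in the control library (148 to 153) and 137 CPM in the stimulated library (135 to 139), a 1.10-fold difference (1.07 to 1.12). Itgav, the shared alpha chain of the alpha v receptors, was at 114 CPM (112 to 116) and 79.1 CPM (77.5 to 80.7), 1.44-fold lower (1.40 to 1.49). Itga8, whose product with beta 1 binds nephronectin and which marks alveolar fibroblasts and myofibroblasts in mouse lung, was at 12.1 CPM (11.4 to 12.8) and 3.99 CPM (3.64 to 4.37). It was 3.03-fold lower (2.71 to 3.38). Macrophage-like control cells, which should lack Itga8, were at 8.64 CPM (4.84 to 14.2). The control level lies within that interval and the stimulated level below it, so the size of the Itga8 fold is not settled.

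All 3 beta chains were lower. Itgb1, the partner of most alpha chains here, was the most abundant integrin gene of both libraries, at 486 CPM (482 to 491) and 262 CPM (259 to 265), 1.86-fold lower (1.83 to 1.89). Itgb5, which pairs only with alpha v, was at 163 CPM (160 to 166) and 45.9 CPM (44.6 to 47.1), and its log2 fold was -1.83. Itgb5 ranked 773rd of all listed genes by level in the control library and 2395th in the stimulated one, while Itga5 ranked 826th and 823rd. Itgb3, whose partner within this set is alpha v, was scarce at 4.49 and 2.75 CPM. It was 1.64-fold lower with an interval (1.41 to 1.90) that reaches below the 1.5-fold mark.

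**Figure D2:**
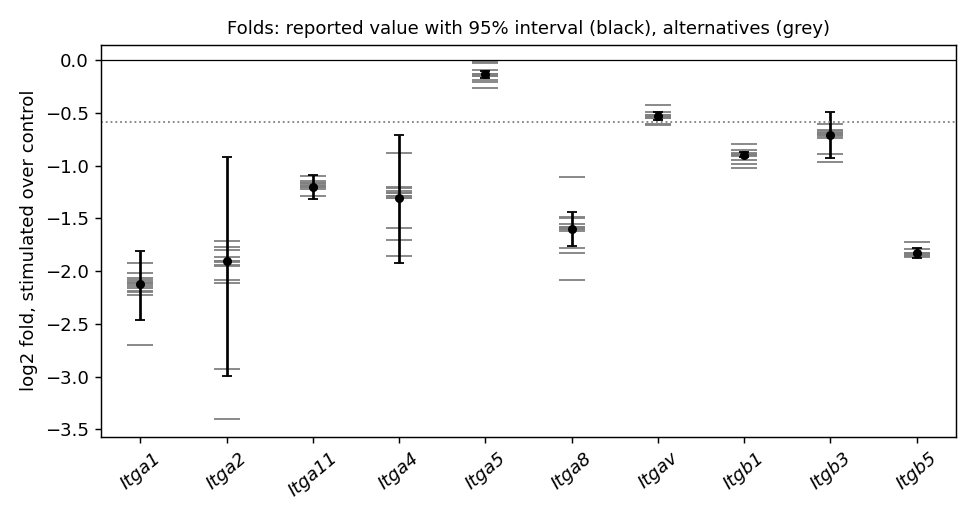
Log2 fold of each integrin gene, stimulated over control, as reported (black, with its 95% interval) and under 13 alternatives of scaling, cells and depth (grey). The dotted line marks 1.5-fold lower. Every value lies below 0, and only Itga5 stays above the dotted line under all alternatives, while those of Itgav lie on both sides of it.

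The make-up of the integrin transcripts differed between libraries. The 7 alpha genes summed to 301 CPM in control and 229.8 CPM in stimulated cells, and the 3 beta genes to 654 and 310.3 CPM. Beta UMIs outnumbered alpha UMIs by 2.18 to 1 (2.14 to 2.21) in the control library and by 1.35 to 1 (1.33 to 1.37) in the stimulated library. Itga5 supplied 50.1% of the alpha UMIs (49.5 to 50.7%) in the control and 59.7% (59.1 to 60.3%) in the stimulated library. Itgav supplied 38.0% and 34.4%, and Itga11 6.24% and 3.55%. Among beta UMIs the share of Itgb5 was 24.9% (24.6 to 25.3%) in the control and 14.8% (14.4 to 15.2%) in the stimulated library, and that of Itgb1 74.4% and 84.3%. There were 0.701 Itgav UMIs for each Itgb5 UMI in the control library (0.683 to 0.719) and 1.72 in the stimulated library (1.67 to 1.78). These are ratios of transcripts and give no amount of receptor.

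**Figure D3:**
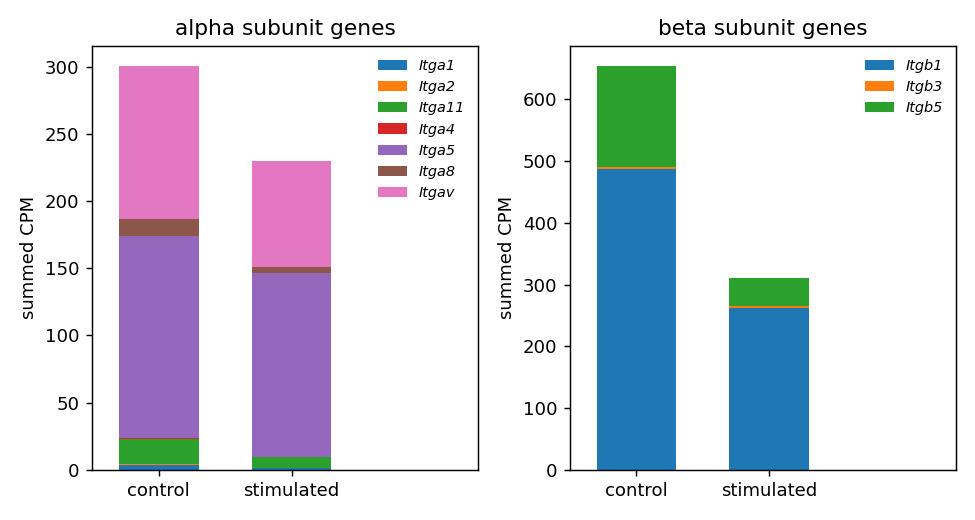
Summed level of the alpha subunit genes (left) and beta subunit genes (right) in each library, in CPM, stacked by gene. The beta bars reach 654 CPM (control) and 310.3 CPM (stimulated), and the Itgb5 segments measure 163 and 45.9 CPM.

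Detection per cell was compared after each cell was thinned to 5000 UMIs, which left 4077 control and 6708 stimulated cells. A UMI of Itgb1 was in 83.8% of control cells (82.6 to 84.9%) and 66.2% of stimulated cells (65.0 to 67.3%). Itgb5 was seen in 52.7% (51.1 to 54.2%) and 19.9% (19.0 to 20.9%), and Itgav in 42.3% (40.8 to 43.8%) and 32.2% (31.1 to 33.4%). Itga5 was the exception, with 42.3% of control cells (40.8 to 43.8%) and 44.4% of stimulated cells (43.2 to 45.6%), intervals that overlap. The mean number of the 10 genes seen in a cell was 2.41 and 1.70. Without thinning Itgb5 was seen in 81.3% and 46.4% of cells.

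Rarely seen genes were set against macrophage-like cells, which should lack Itga8 and Itga11. Itga8 was seen in 5.47% of all control cells (4.79 to 6.21%) and Itga11 in 8.66% (7.81 to 9.56%), at a median depth of 20860 UMIs before thinning. In 131 macrophage-like control cells, with a median of 11405 UMIs, each of these genes was seen in 3.05% (0.84 to 7.63%). The control share of Itga11 lay above that interval and the control share of Itga8 within it. The stimulated shares, 1.82% for Itga8 (1.51 to 2.17%) and 4.08% for Itga11 (3.62 to 4.59%), had no such reference, since that library held 1 macrophage-like cell, and the Itga8 share, below that of control macrophage-like cells, is not read as expression. Itga4 went the other way, at 6.87% of macrophage-like cells (3.19 to 12.6%) against 0.299% of fibroblast-like control cells. Macrophage-like cells carried 27.5% of all control UMIs of Itga4, a known leukocyte integrin, so its level over all cells is partly theirs. Without macrophage-like and mesothelial-like cells the log2 fold of Itga4 was -0.88.

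Clusters of cells were built without any integrin gene, so levels across them are not fixed by the clustering. Among fibroblast-like clusters of at least 50 cells, 4 were from the control and 3 from the stimulated library. For Itgb5 the control clusters ran from 120 to 203 CPM and the stimulated ones from 43.1 to 49.0 CPM. Itgb1 ran from 418 to 805 CPM against 235 to 260 CPM, and Itgav from 106 to 157 CPM against 65.1 to 79.9 CPM. Itga1 (2.42 to 9.14 against 0.679 to 0.879 CPM) and Itga8 (5.47 to 74.9 against 2.23 to 3.18 CPM) did not overlap either, and Itga11 was apart by a narrow margin (10.59 to 25.5 against 6.11 to 10.49 CPM). Thus 6 of 10 integrin genes were lower in every stimulated fibroblast-like cluster than in every control one. Of the 8787 compared genes, 21.7% were below and 7.66% above in this way. With coarser clusters, 2 a side, 10 of the 10 genes were lower in this way beside 39.5% of all genes below and 20.8% above, and with finer ones 5 of the 10 beside 12.4% and 4.43%. Itga5 overlapped, from 119 to 376 CPM in control clusters and from 111 to 132 CPM in stimulated ones. Itgb3 overlapped too and was highest in control cluster 3, led by the proteoglycan genes Lum and Dcn among others, at 9.57 CPM (7.47 to 12.1), where Itgb5 (203 CPM, 193 to 214) and Itga11 (25.5 CPM, 22.0 to 29.4) were also highest among fibroblast-like clusters. Itgb5 was at 124 CPM (108 to 142) in the macrophage-like and 54.2 CPM (41.4 to 69.6) in the mesothelial-like control cells. Macrophage-like cells, which should lack Itga8 and Itga11, were at 8.64 CPM of Itga8 (4.84 to 14.2) and 10.4 CPM of Itga11 (6.14 to 16.4). Among the compared fibroblast-like clusters only control cluster 2 exceeded that Itga8 level. The Itga11 values at the narrow margin lay within that interval. These parts of the separation are therefore not read as differences in expression. An unnamed stimulated cluster, number 11, had Des among its leading genes and is outside that class. With it counted in, 3 of the 10 genes (Itga1, Itga11 and Itgb5) remained apart. Of these, Itga11 was apart only by the same narrow margin, which is not read as a difference in expression. The share of all genes apart in this way with cluster 11 was not computed, so this count has no reference.

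**Figure D4:**
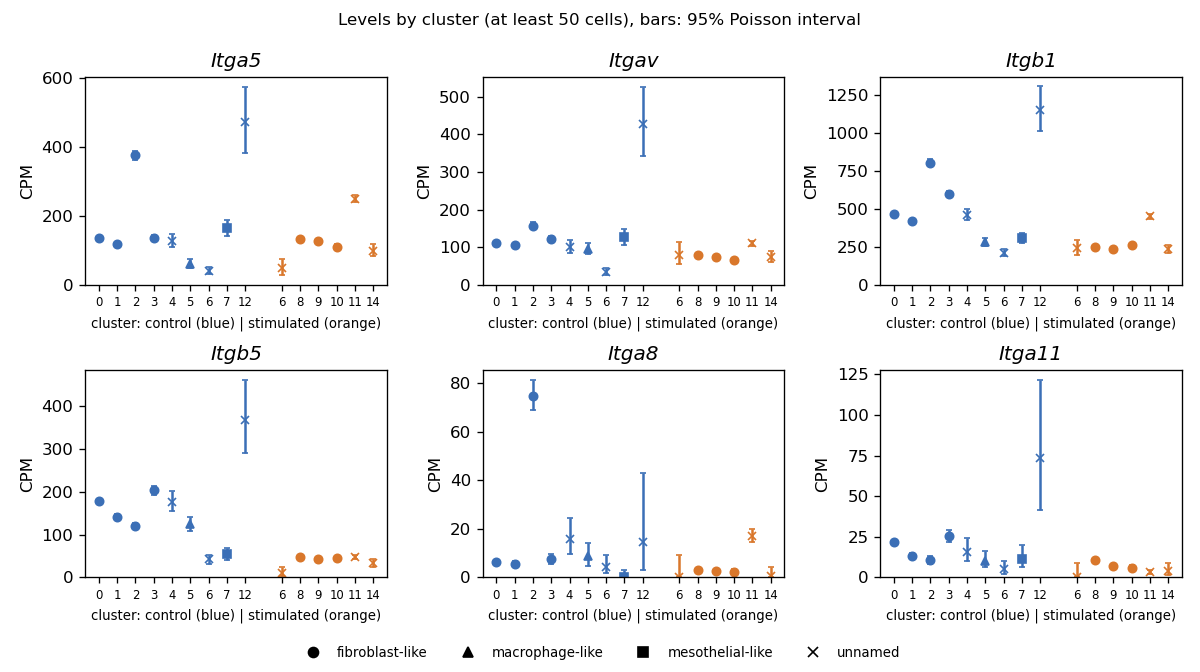
CPM of 6 integrin genes in each cluster of at least 50 cells, control clusters in blue and stimulated clusters in orange, numbered on the x axis, with exact Poisson 95% intervals. Marker shape gives the class. Itgb5 is below 50 CPM in all stimulated clusters, while Itga5 and Itga8 peak among fibroblast-like clusters in control cluster 2 and among stimulated clusters in cluster 11.

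Itga8 was concentrated in a small population. Control cluster 2, led by Cxcl14, the granzyme gene Gzme and the protease gene Mcpt8, held 386 cells, 8.21% of the library, and 52.8% of its Itga8 UMIs. Itga8 was at 74.9 CPM there (68.9 to 81.4) and between 5.47 and 7.55 CPM in the other fibroblast-like control clusters. Stimulated cluster 11, with Gzme and Mcpt8 also among its leading genes, held 7.26% of cells and 33.3% of Itga8 UMIs, at 17.0 CPM (14.4 to 19.9) against 2.23 to 3.18 CPM in the 3 fibroblast-like clusters of that library. These 2 clusters were also highest in Itga5 among clusters other than the mitochondrial one described next, at 376 CPM (362 to 390) and 249 CPM (239 to 260). They held 21 of 34 control and 8 of 12 stimulated Itga2 UMIs. In contrast Itgb5 was lowest there among fibroblast-like control clusters, at 120 CPM (112 to 128), and stood at 47.5 CPM (43.2 to 52.2) in cluster 11. A shallow control cluster led by mitochondrial genes, number 12 with 57 cells and 235 Itgb1 UMIs, had 1154 CPM of Itgb1 (1011 to 1312) and 472 CPM of Itga5 (382 to 576), the highest of any cluster.

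Clusters with like leading genes were set side by side, as pairs picked after their genes were seen. In the largest clusters (0 and 8) Itgb5 was 3.63-fold lower (3.47 to 3.79), Itgb1 1.85-fold (1.81 to 1.89) and Itga5 1.03-fold (0.997 to 1.07). In the cycling clusters (1 and 9) these values were 3.29-fold (3.10 to 3.50), 1.78-fold (1.73 to 1.83) and, for Itga5, a fold of 1.06 in the other direction (1.01 to 1.12). In clusters 2 and 11 Itga5 was 1.51-fold lower (1.43 to 1.59), Itga8 4.41-fold (3.68 to 5.30) and Itgb5 2.53-fold (2.25 to 2.84). Itga8 was 1.94-fold lower (1.60 to 2.36) in clusters 0 and 8 and 1.98-fold (1.497 to 2.63) in clusters 1 and 9. In clusters 0, 1, 8 and 9 Itga8 was below the 8.64 CPM of macrophage-like control cells. Those folds are therefore not read as differences in expression. Itgb3 was 1.42-fold (1.16 to 1.75), 1.07-fold (0.745 to 1.53) and 2.67-fold lower (1.41 to 5.29) in the 3 pairs. Itgav was 1.40 to 1.43-fold lower in all 3 pairs. Itga4 was 1.03-fold higher in the stimulated cluster of the cycling pair (0.298 to 4.51) and of clusters 2 and 11 (0.366 to 3.00). These folds rest on at most 10 UMIs per cluster.

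Itga5, Itga1 and Itgb1 were higher in cells with more contractile transcripts, and so was Itga8 in the control library. Itgb5 did not rise with these transcripts in the control library. Cells with at least 5000 UMIs were ranked within each library by their UMIs of 12 contractile genes, among them Acta2 and Tagln, and split into 4 groups of equal size. From the lowest to the highest contractile group Itga8 was at 3.35 and 28.2 CPM in the control library, 8.42-fold apart (6.59 to 10.9). In the stimulated library it was at 1.56 and 7.27 CPM, 4.66-fold apart (3.35 to 6.62). Macrophage-like control cells, which should lack Itga8, were at 8.64 CPM (4.84 to 14.2). Of these group values only 28.2 CPM exceeded that level. The stimulated difference in Itga8 is therefore not read as a difference in expression. Itga5 was at 62.9 and 271 CPM in the control library, 4.31-fold apart (4.07 to 4.58), and at 103 and 184 CPM in the stimulated library, 1.78-fold apart (1.70 to 1.87). So Itga5 was lower in control than in stimulated cells in the lowest group and higher in the highest one. The groups are not matched in contractile level, with medians of 16 and 96 contractile UMIs per 5000 in the control and 5 and 32 in the stimulated library. Without clusters 2 and 11 the control values of Itga5 were 62.2 and 206 CPM, and those of Itga8 were 2.62 and 11.8 CPM. The 11.8 CPM lies within the interval of macrophage-like cells.

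Itgb1 was 1.85-fold (1.80 to 1.90) and 2.07-fold (1.998 to 2.14) higher in the top than in the bottom contractile group of the control and stimulated library, and Itgav 1.20-fold and 1.49-fold. Itgb5 hardly followed this order. It was at 162 CPM (156 to 167) in the lowest and 146 CPM (141 to 152) in the highest control group, and at 42.8 CPM (40.3 to 45.3) and 48.1 CPM (45.7 to 50.6) in the stimulated library. Itgb5 was thus higher in each of the 4 control groups than in any stimulated group. Contractile genes were themselves lower in the stimulated library, and their part in the differences between libraries was not tested. Cycling cells, with at least 5 UMIs of 12 cycling genes, had less Itgb5 than other cells of the control library (137 against 169 CPM), and Itga11 was at 11.7 against 20.4 CPM. The corresponding stimulated values were 42.3 against 47.7 CPM and 6.18 against 9.10 CPM.

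**Figure D5:**
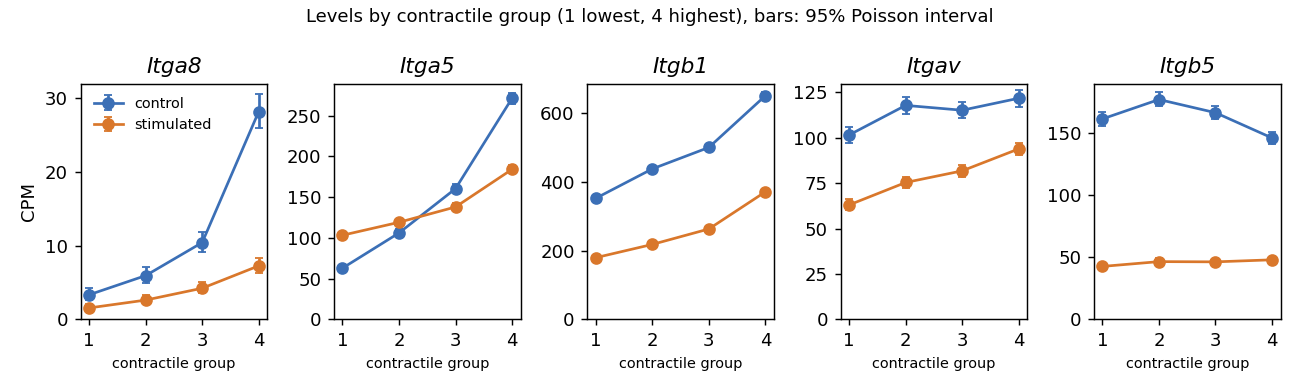
CPM of Itga8, Itga5, Itgb1, Itgav and Itgb5 in 4 groups of each library's cells ranked by contractile UMIs (1 lowest, 4 highest), control in blue and stimulated in orange, with exact Poisson 95% intervals. Itga8 runs from 3.35 to 28.2 CPM and Itga5 from 62.9 to 271 CPM in the control library, while Itgb5 lies between 146 and 177 CPM in the control groups and between 42.8 and 48.1 CPM in the stimulated ones.

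Genes with the most similar pattern were sought over 15 sums of cells, 9 control and 6 stimulated, 1 per cluster and library, by Pearson's r of log2(CPM + 1). The sums share libraries and differ in depth, so the values are descriptive. Itgb5 was most like Gpc6, Cemip and Arhgef2 (r of 0.942, 0.940 and 0.937), and after each library was centred on its own mean these were 0.914, 0.921 and 0.859. Itgb1 was most like the collagen gene Col5a1, the kinase gene Chuk and Thbs1, which encodes thrombospondin 1 (0.957, 0.948 and 0.943). For Itgav the genes were Canx, Slc38a10 and Nomo1 (0.959, 0.957 and 0.956), and for Itga5 Plekha5, Mast4 and Slc20a2 (0.957, 0.950 and 0.948). Itga11 was most like Heg1, Ephb3 and Gpc6 (0.950, 0.944 and 0.942), and Itga8 most like Sod3, Nacad and Nr4a2 (0.915, 0.914 and 0.885). Gpc6, which stands in both the Itgb5 and the Itga11 lists, encodes a cell surface heparan sulfate proteoglycan and was at 18.1 and 4.92 CPM in the control and stimulated libraries.

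Matrix ligands of these receptors were lower in many cases. Among 9 collagen genes 4 were at least 1.5-fold lower and 3 higher (median log2 fold 0.13), with the collagen I genes Col1a1 (2399 and 471 CPM) and Col1a2 (1917 and 690 CPM, written in the order control, stimulated) the most abundant in the list by mean. Col1a1 was 5.10-fold lower (5.05 to 5.14), and the collagen VI gene Col6a2, at 10.8 and 58.2 CPM, was the furthest higher. Of 14 measured genes for RGD and other glycoprotein ligands, 8 were lower and 1 was higher (median -0.80). Thbs1 was at 3791 and 1443 CPM. Ctgf, the matricellular protein gene with the largest fold lower in this list, was at 254 and 72.9 CPM. Fn1, which encodes fibronectin, the ligand of the Itga5 product, was at 1195 and 584 CPM, 2.05-fold lower (2.03 to 2.07). Vcam1, the ligand gene of the Itga4 receptor, was 2.22-fold lower (2.15 to 2.30), and Spp1, which encodes the RGD protein osteopontin, was at 400 and 3497 CPM. Fn1 and Vcam1 were chosen after their values were seen.

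Genes for TGF-beta ligands and their latent binding proteins had 4 of 6 measured members lower and none higher (median -0.80). Over all compared genes the shares were 12.0% and 7.75%. Tgfb2 was at 33.3 and 1.60 CPM, 20.9-fold lower (18.0 to 24.3), whereas the latent binding protein gene Ltbp1 was at 93.2 and 117 CPM. Ltbp3, the member furthest higher, was at 32.2 and 45.9 CPM, and Ltbp2 was 1.84-fold lower (1.77 to 1.91).

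Inside the cell, linkers of integrins to actin had 5 of 15 measured members lower and 2 higher (median -0.35). For this and the next lists, 12.0% of all compared genes were lower and 7.75% higher by 1.5-fold. The lists are small and were not tested against these shares. Actn1 and Actn4, which encode alpha-actinins, were the most abundant, with Actn1 2.46-fold lower (2.42 to 2.50). Lims2, a member of the complex of ILK, PINCH and parvin, was at 48.5 and 9.89 CPM, 4.91-fold lower (4.60 to 5.24), whereas Parvb, a parvin gene of the same complex, was 1.99-fold higher (1.80 to 2.19). Adhesion signalling and scaffold genes had 5 of 18 measured members lower and none higher (median -0.37). Zyx, which encodes the focal adhesion protein zyxin, was at 602 and 234 CPM, Lpp at 224 and 116 CPM, and the paxillin gene Pxn at 22.0 and 32.8 CPM. Of 9 genes for integrin inhibitors and tail binders 2 were lower and none was higher (median -0.23). Flna, which encodes an actin crosslinker that binds beta chain tails, was 1.60-fold lower (1.58 to 1.62), and Dok1 was at 31.3 and 45.6 CPM. Membrane partners had 4 of 13 lower and 3 higher (median -0.23). Sdc4, a syndecan that acts with fibronectin receptors, was at 245 and 491 CPM, 2.01-fold higher (1.98 to 2.04). Plaur, the urokinase receptor gene, was 3.39-fold lower (3.22 to 3.58), and the tetraspanin genes Cd63 and Cd81 were at 1332 and 1021 CPM and at 574 and 602 CPM. The contractile genes used for ranking had 10 of 12 members lower and none higher (median -1.54), among them Acta2 (3217 and 1097 CPM) and Tagln (2215 and 903 CPM). Myh11, a smooth muscle myosin gene, was at 28.4 and 0.393 CPM, and Des, an intermediate filament gene, was 1.31-fold higher (1.27 to 1.35). The cycling genes had 4 of 12 higher and none lower (median 0.50), with Ube2c at 87.9 and 123 CPM, Birc5 at 77.9 and 135 CPM, and Tyms, with the smallest fold, at 39.7 and 41.9 CPM.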

How the data were processed

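The data came from 1 control and 1 stimulated library made with a droplet kit for 3′ ends. The authors deposited raw counts, UMIs per gene and barcode, in matrices written by Cell Ranger 3.0.2 per the file headers. Cell Ranger 1.3.1 and Seurat 3.0.0 are named in the submitters' processing notes. Genome build, annotation and barcode filter: not given in the sources used here.

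Barcodes with at least 500 genes and at most 20% mitochondrial UMIs were kept. Counts were summed per library and divided by its total (CPM), and folds have exact conditional-Poisson 95% intervals, checked on simulated counts. Clusters came from scanpy 1.11.5 in Python 3.11.15 (2000 variable genes less all integrin genes, 30 components, 15 neighbours, Leiden resolution 0.5, no integration). A cluster was named from at least 3 markers seen in at least 25% of its cells; for types other than fibroblast, at least 2 had to be among its 10 leading genes. Clusters led by a marker of another type, or far shallower than their library, stayed unnamed. Scrublet marked 3 control and 0 stimulated cells and was taken as not working, so doublets remain. Cells were thinned to 5000 UMIs without replacement. TMM factors came from edgeR 4.0.16. Transcript 3′ ends of 400 nt (GENCODE M21) were cut into windows of 90 nt and aligned with minimap2 2.31, with at most 2 mismatches counted as shared.

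Named genes were the 10 integrin genes, and of each pathway list the 2 most abundant and the furthest genes each way. For each integrin gene with a mean of at least 5 CPM the 3 most similar genes were also named. Not every gene that this rule selects is reported here, and genes outside it are marked in the text. The 10 genes and the lists were chosen with earlier results of these data known.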

Additional observations from a re-analysis of the deposited data

How the results depend on the processing

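Under 13 alternatives (TMM factors, a total without mitochondrial and ribosomal protein genes, every deposited barcode, deeper cells, fibroblast-like clusters, cells of named other types left out, cells not in cycle, equal weight per cell, high doublet scores left out, thinning, and the 3 chosen after the data were seen: without clusters 2 and 11, without cluster 12, without shared barcodes) every integrin gene kept a log2 fold below 0, and 8 or 9 of 10 were at least 1.5-fold lower. The setting without high doublet scores used the Scrublet scores, whose calls were taken as not working, so it cannot show what doublets contribute. TMM moved all log2 folds by 0.10. Itga5 ranged from -0.27 to -0.02, Itgav from -0.61 to -0.43, Itgb1 from -1.02 to -0.79 and Itgb5 from -1.87 to -1.73. Itgav passed the 1.5-fold mark in 2 of the 13, fibroblast-like clusters and thinning. Itga8 was lowest in fibroblast-like clusters (-2.09) and nearest to 0 without clusters 2 and 11 (-1.11). The fibroblast-like setting keeps control cluster 2 but leaves out stimulated cluster 11, so for every gene it compares unlike sets of cells. With only genes of a mean of at least 5 CPM, 4 of 6 were lower by the factor, and at 20 CPM 2 of 4. At clustering resolution 0.3 the libraries' fibroblast-like clusters did not overlap for 10 of 10 genes, with 2 clusters a side, and at 1.0 for 5. Itga5 was seen in a larger share of stimulated than of control cells at 5000 UMIs and without thinning, but not at 3000 UMIs. Itga2 and Itga4, with 12 and 37 stimulated UMIs, are limited by counting. No paired analysis was possible because each group has 1 library.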

Other observations

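Of 17 further integrin subunit genes 15 had a UMI, of which 6 were lower in stimulated cells by a factor of 1.5 or more, 3 were higher by it and 6 lay between. Itga2b was the only one with a mean of at least 5 CPM, and the others named here were picked after their values were seen. The shares among genes that reached that mean, 12.0% lower and 7.75% higher, are therefore not a like reference for these counts. Among the lower genes, Itgal, Itgam, Itgax and Itgb2 had 80.0%, 93.5%, 85.4% and 88.2% of their control UMIs in macrophage-like cells. Itga2b, known from platelets, was at 5.41 and 7.68 CPM in the control and stimulated libraries, and at 6.00 CPM in control cluster 0, a fibroblast-like cluster. Itga10, which encodes a collagen receptor chain best known from cartilage, had 23 control and 336 stimulated UMIs and was 11.0-fold higher (7.23 to 17.7), the reverse direction of Itga1, Itga2 and Itga11. Its highest level, 3.69 CPM, was in stimulated cluster 8. Itga6, a laminin receptor chain, was at 2.59 and 5.42 CPM, 2.10-fold higher (1.80 to 2.45), and was highest among stimulated clusters in cluster 11 (11.7 CPM) and among control clusters in the macrophage-like one (21.9 CPM). Itga7, a laminin receptor chain of muscle, was 1.74-fold lower (1.40 to 2.17), Itga3 1.53-fold (1.25 to 1.86) and Itga9 1.24-fold lower (1.081 to 1.42). Itga7 and Itga3 were highest in the 57 mesothelial-like control cells, at 28.4 and 37.3 CPM. Those cells held 32 of 192 and 42 of 224 control UMIs. The stimulated library had 23 such cells, and folds of Itga7 and Itga3 without these cells were not computed.

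Macrophage-like control cells held 144 of 154 control UMIs of Itgam and 224 of 254 of Itgb2, whose products form a leukocyte integrin. They held 0 of 27 of Itgb7 and 0 of 7 of Itgae, which are also known from leukocytes. The stimulated library, with 1 macrophage-like cell, had 0 UMIs of Itgam and 43 of Itgb2.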
